A study of Mus musculus with 3 samples.

Results

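The uncoupling proteins Ucp1, Ucp2 and Ucp3 were followed in the brown fat of mice, 3 genes of the 19329 genes and unnamed features tested. They were measured by every non-control probe that carries a RefSeq accession of 1 of them, which gave 4 probes among 55681. These were A_51_P426353 for Ucp1 (NM_009463), A_51_P297105 for Ucp2 (NM_011671), and A_66_P108247 and A_52_P380379 for Ucp3 (NM_009464). Each probe has 1 spot on an array, and all 4 were well above background in both channels of all 3 arrays, so every member passed the filter on dim probes. Each of the 3 arrays set an Ad-Lkb1 sample, carrying Cy5 (red), against a wild-type littermate's, carrying Cy3 (green). All mice were 10-week-old males on regular chow, and their strain is given as C57BL/6J (Ad-Lkb1) or C57BL/6 (wild type). In Ad-Lkb1 mice the kinase LKB1, encoded by Stk11, is deleted. The promoter that drives the deletion, and whether a sample is a single animal, are not given in the sources used here. With the same dye on the same genotype throughout, dye and genotype cannot be told apart, nor can the strain name. The study calls the 3 samples of each genotype biological replicates.

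Uncoupling proteins belong to the family of carriers in the inner mitochondrial membrane. UCP1 is abundant in brown adipocytes, where fatty acids activate it to let protons return to the matrix without making ATP, so that the energy of respiration is released as heat. Noradrenaline from sympathetic nerves raises Ucp1 transcription through cyclic AMP and activates lipolysis, which supplies those fatty acids. UCP2 is found in many tissues and is prominent in macrophages and other immune cells. UCP3 is found mainly in skeletal muscle and brown fat, and its gene responds to fatty acids through the PPAR receptors. The genes of Ucp2 and Ucp3 lie next to each other on mouse chromosome 7, and Ucp1 lies on chromosome 8.

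The share of probes well above background was 46.7% to 46.8% in green and 47.7% to 51.3% in red, with 0 saturated spots. The files give no tag or read depth, and the number of arrays, 3, limits the precision. Stk11 was the targeted gene, and its log2 ratio was -1.26, -1.17 and -1.17, so it was 2.30-fold higher in wild type (SD 0.056 on the log2 scale, n = 3; limma, adjusted p = 0.0105). In whole tissue, a change in the number of cells of a type and a change in RNA per cell cannot be told apart.

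The 250 bases upstream of each gene's annotated start are shown because the 3 genes differ in their known regulators and because both neighbours on chromosome 7 were measured here. They are RefSeq sequence of build GRCm38.p6, plus strand, 5′ to 3′, at chr8:83290098-83290347 for Ucp1, chr7:100493108-100493357 for Ucp2 and chr7:100472741-100472990 for Ucp3. Capitals mark every match, on either strand, to TGACG (the core of the cAMP response element), AGGTCA (the unit of nuclear receptor sites) or GGGCGG (the GC box), and no matches overlapped.
Ucp1: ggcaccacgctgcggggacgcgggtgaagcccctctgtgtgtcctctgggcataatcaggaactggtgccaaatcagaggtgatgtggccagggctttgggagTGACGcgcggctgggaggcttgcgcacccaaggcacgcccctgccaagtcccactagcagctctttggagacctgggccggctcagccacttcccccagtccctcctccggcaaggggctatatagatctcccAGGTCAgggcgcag
Ucp2: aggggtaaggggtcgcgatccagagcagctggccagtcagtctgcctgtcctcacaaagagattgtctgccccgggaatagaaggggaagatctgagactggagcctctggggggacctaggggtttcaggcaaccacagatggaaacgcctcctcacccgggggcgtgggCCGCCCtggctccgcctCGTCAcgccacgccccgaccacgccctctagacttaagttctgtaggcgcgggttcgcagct
Ucp3: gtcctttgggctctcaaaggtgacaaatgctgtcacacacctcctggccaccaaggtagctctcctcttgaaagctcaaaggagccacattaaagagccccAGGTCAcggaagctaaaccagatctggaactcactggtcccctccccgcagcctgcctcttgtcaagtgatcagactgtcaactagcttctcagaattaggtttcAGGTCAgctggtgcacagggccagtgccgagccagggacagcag
The Ucp1 window held 1 TGACG, beginning 147 bases before the start, and 1 AGGTCA, beginning 14 bases before it. The Ucp2 window held 1 GGGCGG and 1 TGACG, both on the minus strand, at 79 and 62 bases. The Ucp3 window held 2 AGGTCA, at 149 and 44 bases. Of 32851 windows of the same length, 17.8% held TGACG, 14% held AGGTCA and 32.7% held GGGCGG. A match is only a match of letters. The distal enhancer of Ucp1, known as the site of much of its control, lies outside this window.

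Ucp1 rose in Ad-Lkb1 tissue. Its probe read 74002, 56150 and 58087 scanner units in wild type on arrays 1 to 3 and 83496, 82127 and 70855 in Ad-Lkb1, against local backgrounds between 40 and 41 in green and between 16 and 18 in red. The unnormalized red signal was the higher on all 3 arrays. The median spot lay near background, at 51 to 53.5 in green and 21 to 23 in red. Median local backgrounds were 43 to 44 in green and 17 in red. After normexp background correction and loess, which levels the dye ratio along intensity, the log2 ratio (Ad-Lkb1 to wild type) was 1.69, 1.39 and 1.35, a mean of 1.48 ± 0.19 (SD, n = 3; SE 0.097), or 2.78-fold (limma, adjusted p = 0.0114 over 19329 genes and unnamed features). Only 0.74% of these features had a higher ratio. Ucp1, Ucp2 and, by its brighter probe A_66_P108247, Ucp3 had ratios above 0 on every array, as had 24% of all features. The other Ucp3 probe, A_52_P380379, had 0.14, -0.72 and -1.66. Of all features, 27.7% were below 0 on every array. Of all features, 8.7% passed the adjusted threshold of 0.05, 4.78% as higher and 3.92% as lower. As channel levels after loess and quantile scaling of intensities, wild type lay between 15.34 and 15.42 and Ad-Lkb1 between 16.73 and 17.03 on the log2 scale. These groups did not overlap, as was so for 17.7% of all features in this direction. Without array 1 or without array 2 the mean was 1.37 and 1.52, and neither passed (adjusted p = 0.123 and 0.0878). Without array 3 it was 1.54 and passed (adjusted p = 0.00715).

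**Figure D1:**
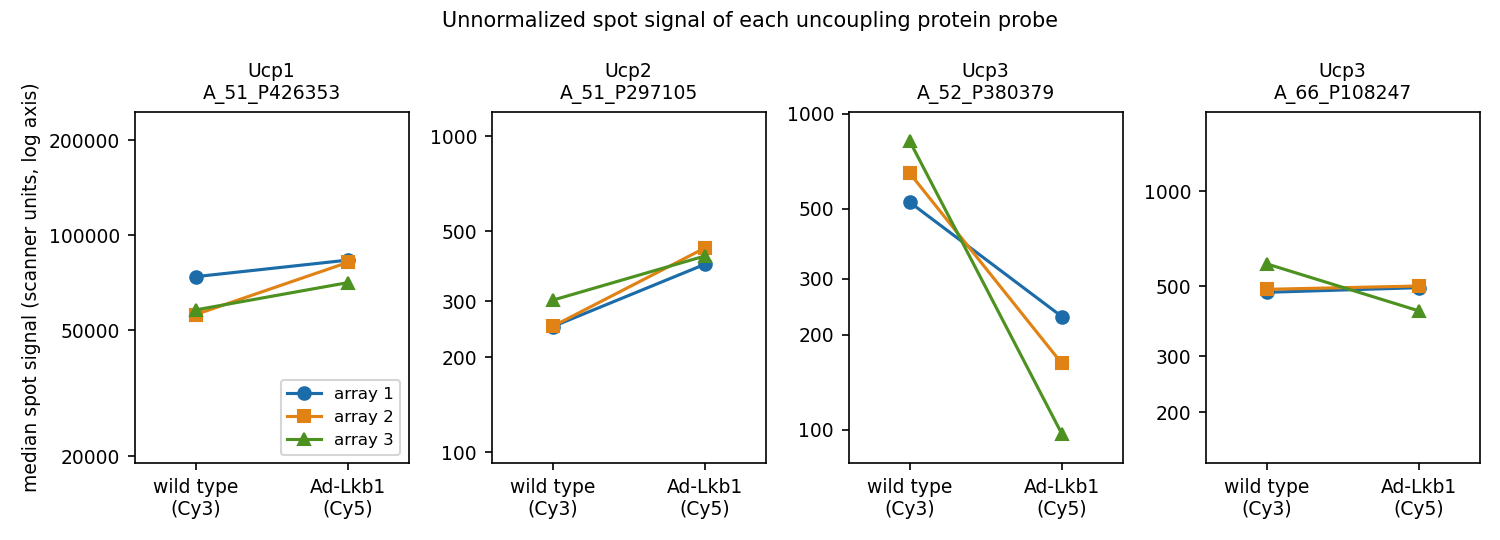
Unnormalized median spot signal (scanner units, log axis) of the 4 probes in wild type (Cy3) and Ad-Lkb1 (Cy5), with a line joining the channels of an array. All lines of Ucp1 and Ucp2 go up, those of Ucp3 A_52_P380379 go down, from 525, 649 and 820.5 to 228, 162 and 97, and those of A_66_P108247 are nearly level on arrays 1 and 2.

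The size of the Ucp1 change depended on how the dye ratio of very bright spots was set. Only 21 kept probes (0.0839%) were brighter than that of Ucp1. Before loess its log2 ratio was 0.17, 0.55 and 0.29 on arrays 1 to 3, and loess added 1.52, 0.84 and 1.06. Against the median of the 71 kept probes next to it in intensity, 21 brighter and 50 dimmer, its ratio was higher by 1.30, 1.03 and 0.81, a mean of 1.06, in a comparison added after the data were seen. For Ucp2 and for Ucp3 A_66_P108247, which have 100 such neighbours, the same comparison gave 1.80 and 1.16, against 1.69 and 1.06 with loess. A loess span of 0.1 gave 1.23 for Ucp1 and a span of 0.7 gave 1.63. The scanner software's processed signals gave folds of 2.52, 2.15 and 1.90 on the arrays (mean log2 ratio 1.12, limma, adjusted p = 0.0382). Centring each array on its median, without loess, left the median of all features at -0.42 and gave 0.80 for Ucp1, which still passed (adjusted p = 0.012). Ucp1 was higher in Ad-Lkb1 in each of these settings, at between 1.74-fold and 3.09-fold over the 14 alternatives.

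**Figure D2:**
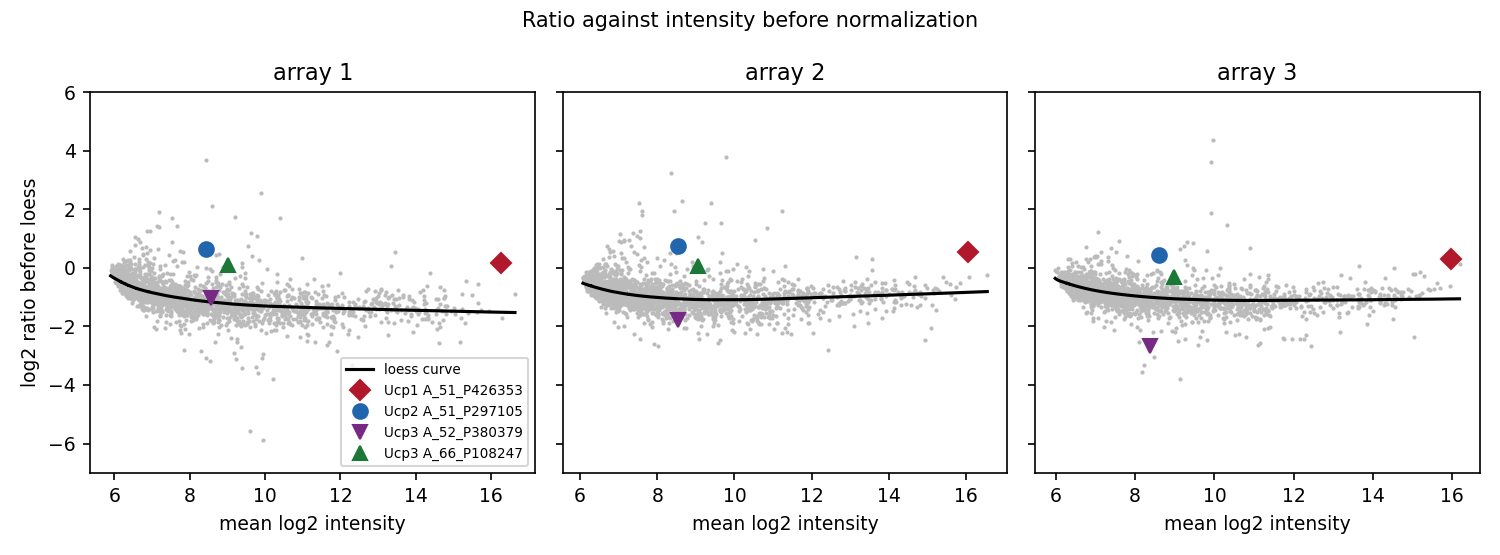
Log2 ratio (Ad-Lkb1 to wild type) before loess against mean log2 intensity on arrays 1 to 3, for a sample of kept probes (grey), the 4 member probes (coloured) and the loess curve (black). Ucp1 lies at the bright end, between 15.97 and 16.26, above the curve on all 3 arrays.

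Ucp2 also rose in Ad-Lkb1 tissue. Its probe read 249.5, 250 and 302.5 in wild type and 393, 442.5 and 417.5 in Ad-Lkb1, which is between 5.95 and 7.38 times the local background in green and between 23.1 and 26.0 times in red. All Ad-Lkb1 signals lay above all wild-type signals before any normalization. The log2 ratio was 1.80, 1.79 and 1.47, a mean of 1.69 ± 0.19 (SD, n = 3; SE 0.096), or 3.22-fold (limma, adjusted p = 0.0105), and 0.512% of features had a higher ratio. Channel levels ran from 7.60 to 7.81 in wild type and from 9.28 to 9.42 in Ad-Lkb1. They did not overlap, as was so for 17.7% of all features in this direction. Being dim, this probe is pulled towards 0 by the offset of 50 used in the background correction. With an offset of 10 its mean was 1.98, and with the software's processed signals it was 2.09 (folds of 4.70, 4.65 and 3.55 on the arrays). With median centring it was 1.07 (adjusted p = 0.00821). Without array 1 or array 2 it was 1.63 (adjusted p = 0.123) and 1.64 (adjusted p = 0.0878), neither past the threshold, and without array 3 it was 1.80 (adjusted p = 0.00509).

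Macrophage markers were also higher. Of 12 listed, 11 were measured and Cd163 was below the filter. By the adjusted threshold 8 of the 11 rose and 0 fell (72.7%, against 8.7% of all features). Their median log2 ratio was 1.88, against -0.0099 over all features. With median centring it was 1.32, where 7 rose and 2 fell. All 19329 features then had a median of -0.42, with 389 higher and 9710 lower. Processed signals gave 5 markers higher and 0 lower with a median of 2.50, against 529 and 281 of all 19329 features. With no filter on dim probes 2 of 12 were higher and 0 lower with a median of 1.75. Of the 36798 features in that setting, 541 were higher and 492 lower. After loess the marker median was 2.24, 2.39 and 1.20 on arrays 1 to 3. The summed level of the 11 lay between 3008 and 6665 in wild type and between 11909 and 14639 in Ad-Lkb1. Trem2, a lipid-sensing receptor of macrophages, had 3.39 (adjusted p = 0.0105), and Gpnmb, a glycoprotein of lipid-loaded macrophages, had 2.66 (adjusted p = 0.0157), with wild type well above background on 2 of the 3 arrays. The pan-macrophage markers Adgre1 and Cd68, named after their values were seen, had 1.88 and 2.24. The 3 that did not pass were Itgam at -0.093, Cd14 at -0.027 and Mpeg1 at 1.28 (limma, adjusted p = 0.576, 0.941 and 0.256). Mpeg1 had -0.55 on array 3. Array 3 had the lowest value of both the marker median and Ucp2, as it had for Ucp1 and both Ucp3 probes. The part of these cells in the Ucp2 ratio was not tested. Of 6 measured lymphocyte markers 1 rose, the cytokine receptor Il7r, and 0 fell (16.7%, against 8.7% of all features), with a median of -0.022. Il7r had a log2 ratio of 0.98 (limma, adjusted p = 0.0299), and 0.87 with median centring. Its probe did not clear background in any wild-type sample, so these ratios rest on a wild-type signal not well above background. The chemokine receptor Ccr7 had 0.53 (adjusted p = 0.173).

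The 2 probes of Ucp3 had means of opposite sign. Probe A_66_P108247, the brighter one and so the one that stands for the gene, read 478.5, 489 and 589 in wild type and 495, 501 and 418 in Ad-Lkb1. After loess its log2 ratio was 1.31, 1.13 and 0.74, a mean of 1.06 ± 0.29 (SD, n = 3; SE 0.13), or 2.08-fold (limma, adjusted p = 0.0251 over genes and 0.0245 over 25033 kept probes, of which 8.73% passed, 4.73% as higher and 4% as lower). Its unnormalized signals overlapped between genotypes, whereas its channel levels, 8.45 to 8.56 in wild type and 9.29 to 9.76 in Ad-Lkb1, did not. Levels did not overlap in this direction for 17.7% of all features. Probe A_52_P380379 read 525, 649 and 820.5 in wild type and 228, 162 and 97 in Ad-Lkb1, the widest spread of any member. Its log2 ratio was 0.14, -0.72 and -1.66, a mean of -0.75 ± 0.90 (SD, n = 3), which did not pass (limma over kept probes, adjusted p = 0.244). That mean was -1.19 without array 1, -0.76 without array 2 and -0.29 without array 3. Channel levels of this probe overlapped, at 8.60 to 9.15 in wild type and 7.50 to 8.74 in Ad-Lkb1.

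**Figure D3:**
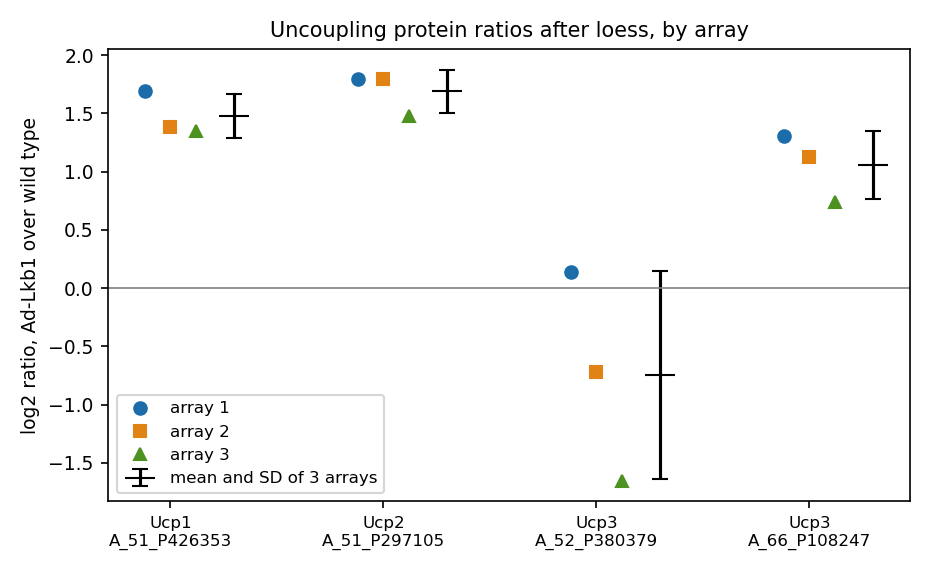
Log2 ratio (Ad-Lkb1 to wild type) after loess for each member probe on arrays 1 to 3 (coloured), with the mean and SD of 3 arrays (black). Ucp1, Ucp2 and Ucp3 A_66_P108247 lie above 0 on all arrays, and Ucp3 A_52_P380379 runs from 0.14 to -1.66.

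Within an array, A_66_P108247 exceeded A_52_P380379 by 1.17, 1.85 and 2.39 on the log2 scale, a mean of 1.80 ± 0.61 (SD, n = 3), or 3.49-fold (exact two-sided sign-flip permutation test, p = 0.25, the smallest that 3 arrays allow). Both probes were lowest in Ad-Lkb1 relative to wild type on array 3. On that array the local green background at A_66_P108247 was 97, against 42 and 47 on the other arrays, and the software marked it as a background outlier in both channels. It also marked the red background of A_52_P380379 on array 3, the array of that probe's lowest ratio. Without background subtraction the mean of A_66_P108247 was 1.16 (adjusted p = 0.0257 over genes). The Ucp3 call was the least stable of the members. The mean of both probes gave 0.16 (adjusted p = 0.719). A_66_P108247 as the gene had 0.40 with median centring (adjusted p = 0.051), 1.24 with processed signals (adjusted p = 0.052) and 1.06 with no filter on dim probes (adjusted p = 0.0533), none past the threshold. Without array 1 it had 0.93 (adjusted p = 0.142) and without array 2 it had 1.02 (adjusted p = 0.139). With median centring A_52_P380379 had -1.36 and passed (limma, adjusted p = 0.0193 over kept probes). On that same scale A_66_P108247, at 0.40, also passed (limma, adjusted p = 0.049 over kept probes), in the opposite direction. Median centring called 389 of 19329 features higher and 9710 lower. Where in the transcript each probe lies was not analysed here.

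Skeletal muscle markers, which bear on Ucp3 because muscle expresses it, differed widely between arrays. Of 16 listed, 9 were measured, and Ckm, Myh1, Myh2, Casq1, Actn3, Myoz1 and Ryr1 were below the filter. None of the 9 passed, and their median log2 ratio was -3.17, 2.36 and 3.90 on arrays 1 to 3. Their summed level was 22695, 6636 and 3558 in wild type and 4049, 25974 and 26170 in Ad-Lkb1. The skeletal actin gene Acta1 had -3.17, 3.06 and 4.27, and Atp2a1, the calcium pump of fast muscle, had -1.11, 1.29 and 1.47 (adjusted p = 0.609 and 0.576). By median and by summed level, muscle markers were thus higher in the wild-type sample of array 1 and in the Ad-Lkb1 samples of arrays 2 and 3. Mylpf, named after its values were seen, did not follow this, with 0.0070, 0.031 and -0.23. Both Ucp3 probes had their highest ratio on array 1 and their lowest on array 3, as had Ucp1 and Ucp2. On arrays 1 to 3, A_66_P108247 had 1.31, 1.13 and 0.74, and A_52_P380379 had 0.14, -0.72 and -1.66. The part of muscle in the Ucp3 ratios was not tested.

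**Figure D4:**
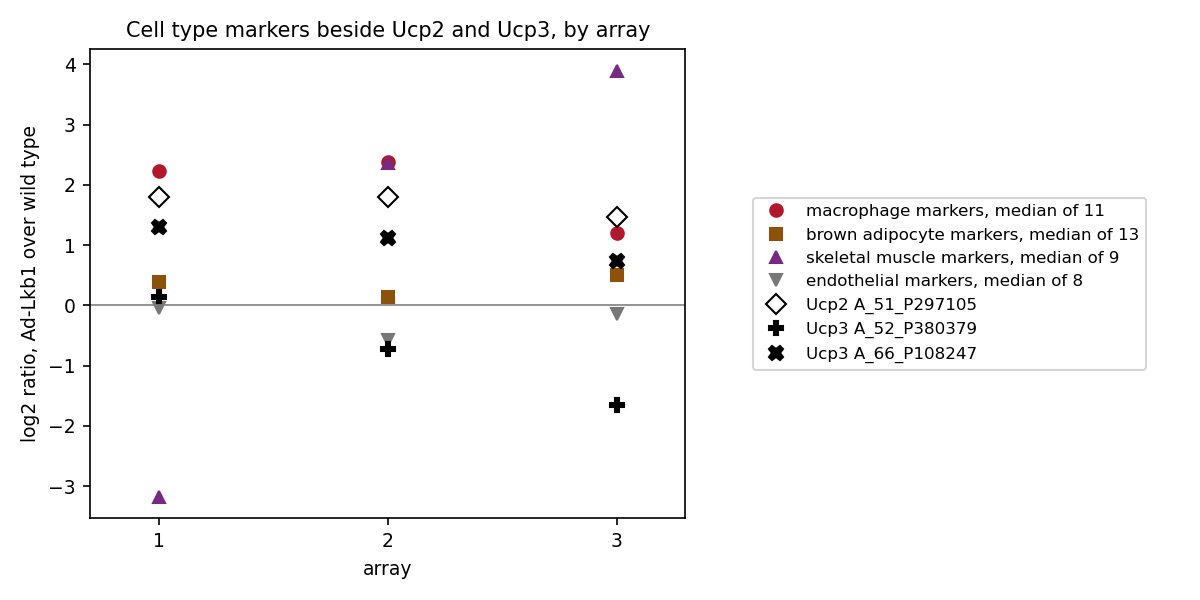
Log2 ratio (Ad-Lkb1 to wild type) by array for Ucp2 and both Ucp3 probes (black) and the median of 4 marker lists (coloured). The muscle median runs from -3.17 on array 1 to 3.90 on array 3, while the macrophage median and Ucp2 are above 0 on all 3.

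The ratios of the 3 genes were also compared with each other within arrays, in 4 comparisons that include the pair of Ucp3 probes. Ucp1 minus Ucp2 was -0.10, -0.41 and -0.12 on the log2 scale, a mean of -0.21 ± 0.17 (SD, n = 3). That mean was -0.97 with the software's processed signals and -0.039 with a loess span of 0.7, where the arrays no longer shared a sign (exact two-sided sign-flip permutation test, p = 1). Ucp1 exceeded Ucp3 by 0.38, 0.26 and 0.61, and Ucp2 exceeded Ucp3 by 0.49, 0.67 and 0.74. Each had an exact two-sided sign-flip permutation p of 0.25, also after adjustment over the 4, which is the smallest possible. The order of Ucp1 and Ucp3 turned with processed signals, where the mean of Ucp1 minus Ucp3 was -0.12. Only the order of Ucp2 above Ucp3 and of Ucp2 above Ucp1 kept its sign in the mean under all 14 alternatives.

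Of 19 measured genes known to turn on Ucp1 transcription, 1 rose and 2 fell, a share of 15.8% past the threshold against 8.7% of all features, and the median was -0.053. With median centring 1 was higher and 12 were lower, with a median of -0.61. Of all 19329 features, 389 were then higher and 9710 lower, with a median of -0.42. Cebpd, a C/EBP factor of early adipocyte differentiation, had a log2 ratio of 1.24 (SD 0.17, adjusted p = 0.0124). Ppara, a fatty acid-activated nuclear receptor, had a log2 ratio of -1.69 (SD 0.31, adjusted p = 0.0134). The third, named after its values were seen, was the thyroid hormone receptor Thrb at -0.72 (adjusted p = 0.0498). The coactivator Ppargc1a, also named after its values were seen, had -0.94, 0.13 and 1.98 on arrays 1 to 3, with a mean of 0.39 that did not pass (adjusted p = 0.702). Among 8 measured repressors of Ucp1, 0 rose and 1 fell (12.5%, against 8.7% of all features), the pocket protein gene Rb1 at -0.63 (adjusted p = 0.0214), and the corepressor Tle3 had -0.37 (adjusted p = 0.0514). The median of the repressors was -0.056, and with median centring it was -0.57, with 0 higher and 6 lower.

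Of 11 genes of the sympathetic signal, 2 rose and 2 fell (36.4%, against 8.7% of all features), with a median of -0.21. Median centring gave 1 higher and 7 lower with a median of -0.69, and processed signals gave 1 higher and 0 lower. Over all 19329 features median centring gave 389 higher and 9710 lower, with a median of -0.42, and processed signals gave 529 higher and 281 lower. Dio2, the deiodinase that makes active thyroid hormone inside brown adipocytes, rose, with 2.07 (SD 0.54, adjusted p = 0.0205), whereas the noradrenaline receptor Adrb3 fell and was 2.00-fold higher in wild type (SD 0.30 on the log2 scale, adjusted p = 0.0283). The other members past the threshold, named after their values were seen, were the G protein gene Gnas at 0.74 and the adenylyl cyclase Adcy6 at -0.91. Of 14 genes that supply fatty acids, 2 rose and 3 fell (35.7%, against 8.7% of all features), with a median of -0.15. Median centring gave 2 higher and 11 lower, with a median of -0.85. Glycerol kinase Gk had 1.12 (adjusted p = 0.0215) and the fatty acid-binding protein Fabp3 had -0.98 (adjusted p = 0.0195).

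All 13 brown adipocyte markers listed, uncoupling proteins aside, were measured, as the labelled tissue should have them, with Dio2 and the respiratory subunit gene Cox7a1 (0.96, adjusted p = 0.0218) having the smallest p. Of the 13, 4 rose and 1 fell, a share of 38.5% past the threshold against 8.7% of all features. The median was 0.38, and with median centring it was -0.32, against -0.42 over all features. Of the 13, 1 was then higher and 4 lower, against 389 and 9710 of all 19329 features. Processed signals gave 1 of the 13 higher and 0 lower, against 529 and 281 of all features. Cox7a1 had 0.28 with median centring (limma, adjusted p = 0.323). The others past the threshold, named after their values were seen, were the lipid droplet protein Cidea at 0.55, the elongase Elovl3 at 0.45 and the ATP-gated channel P2rx5 at -0.46. Ucp1 thus had a higher ratio than 12 of these 13 markers, Dio2 being the exception. White fat-enriched markers had 2 of 6 measured higher and 0 lower (33.3%, against 8.7% of all features), with a median of -0.043. The 2 were Sncg, a synuclein, at 2.10 and Nnmt, which methylates nicotinamide, at 2.67 (limma, adjusted p = 0.0105 and 0.0142). Median centring gave 2 higher and 2 lower white fat-enriched markers. Lep and Retn, which encode leptin and resistin and were named after their values were seen, had -0.19 and -0.77, neither past the threshold. Endothelial markers had 1 of 8 higher and 1 lower (25%, against 8.7% of all features), with a median of -0.28. The higher one, Vwf, had 0.40 (limma, adjusted p = 0.0408), which became -0.25 with median centring. The lower one, the receptor Kdr, had -0.42 (limma, adjusted p = 0.04). Median centring gave 0 higher and 6 lower endothelial markers, with a median of -0.86.

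Genes of fatty acid oxidation that are often measured beside Ucp3 had 3 of 18 higher and 3 lower (33.3%, against 8.7% of all features), with a median of 0.067. Median centring gave 1 higher and 12 lower with a median of -0.60, and processed signals gave 0 higher and 3 lower. Over all 19329 features median centring gave 389 higher and 9710 lower, with a median of -0.42, and processed signals gave 529 higher and 281 lower. The acyl-CoA thioesterase Acot1 had -1.82 (SD 0.19, adjusted p = 0.0105), and Fabp3 had -0.98. Cpt1a, the entry step of fatty acids into mitochondria, named after its values were seen, had 1.01 (adjusted p = 0.0328). Carriers related to the uncoupling proteins had 0 of 8 higher and 1 lower (12.5%), with a median of -0.048. Median centring gave 0 higher and 4 lower, with a median of -0.54. The citrate carrier Slc25a1 had -1.88 (SD 0.25, adjusted p = 0.0108), and the phosphate carrier Slc25a3 had -0.44 (adjusted p = 0.0595). Slc25a14 and Slc25a30, brain and kidney relatives of the uncoupling proteins, had 0.12 and 0.0065 (Slc25a30 cleared background in 1 wild-type sample), and the adenine nucleotide carriers Slc25a4 and Slc25a5 had 0.16 and 0.18, none past the threshold. These 4 carriers were named after their values were seen, and Slc25a27 and Slc25a31 were below the filter.

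Of 8 measured genes of heat production without UCP1, 3 rose and 1 fell (50%, against 8.7% of all features), with a median of 0.24. Median centring gave 2 higher and 3 lower, with a median of 0.062. Of all 19329 features, 389 were then higher and 9710 lower. The calcium pump Atp2a2 had 0.75 (SD 0.015, adjusted p = 0.015), which became 0.081 with median centring (adjusted p = 0.585), and Pm20d1, an enzyme that makes N-acyl amino acids, had -0.87 (adjusted p = 0.015). The other members that rose, named after their values were seen, were the creatine kinase Ckb at 1.00 and the phosphatase Alpl at 1.22. Of 13 core respiratory chain genes, 5 rose and 0 fell (38.5%, against 8.7% of all features), with a median of 0.24. With median centring their median was -0.45, against -0.42 over all features, with 0 higher and 5 lower. Processed signals gave 0 higher and 0 lower, against 529 and 281 of all 19329 features. Atp5b of ATP synthase had 1.03 and Sdhb of complex II had 0.92 (adjusted p = 0.0164 and 0.0139), neither past the threshold with median centring. Each list above had 0 members past the threshold without array 1 and without array 2, since limma then called 0 features in all.

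The protein-coding genes that lie beside the members on the chromosomes were measured too. Dnajb13, a heat shock protein gene of cilia and sperm next to Ucp2, had 0.95, 1.16 and 0.83 on arrays 1 to 3, a mean of 0.98 (adjusted p = 0.0165). With median centring it had 0.80, where Ucp1 had 0.80, Ucp2 1.07 and Ucp3 0.40. Its probe did not clear background in any wild-type sample, so the fold of 1.98 rests on a wild-type signal that was itself not well above background. C2cd3, next to Ucp3, had -0.12 (adjusted p = 0.373), and Ppme1 and Coa4, further out, had -0.26 and -0.43, neither past the threshold. Beside Ucp1, Tbc1d9 had 0.27 and Elmod2 had 0.32 (-0.30 with median centring), neither past the threshold, and Rnf150 had -0.52 (adjusted p = 0.0473). Mgat4d had no value.

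The genes with the most similar ratios over the 3 arrays, by Euclidean distance among 12570 other named genes, are given as a description. For Ucp1 they were the apolipoprotein gene Apoc2 at a distance of 0.12, the cytochrome Cyb561 at 0.13 and Endod1 at 0.17. For Ucp2 they were the interferon-inducible Ifi211 and Gchfr, which regulates tetrahydrobiopterin synthesis, both at 0.17, and Derl3, a protein of the endoplasmic reticulum, at 0.24. For Ucp3 A_66_P108247 they were the adaptor gene Bcar3 at 0.055, the esterase gene Aadac at 0.11 and the receptor gene Sirpb1b at 0.11. Among wild-type samples, Aadac cleared background in 0 of 3, and Derl3 and Sirpb1b in 1. Ifi211 and Sirpb1b have close paralogs, so which gene their probes measured is uncertain.

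**Figure D5:**
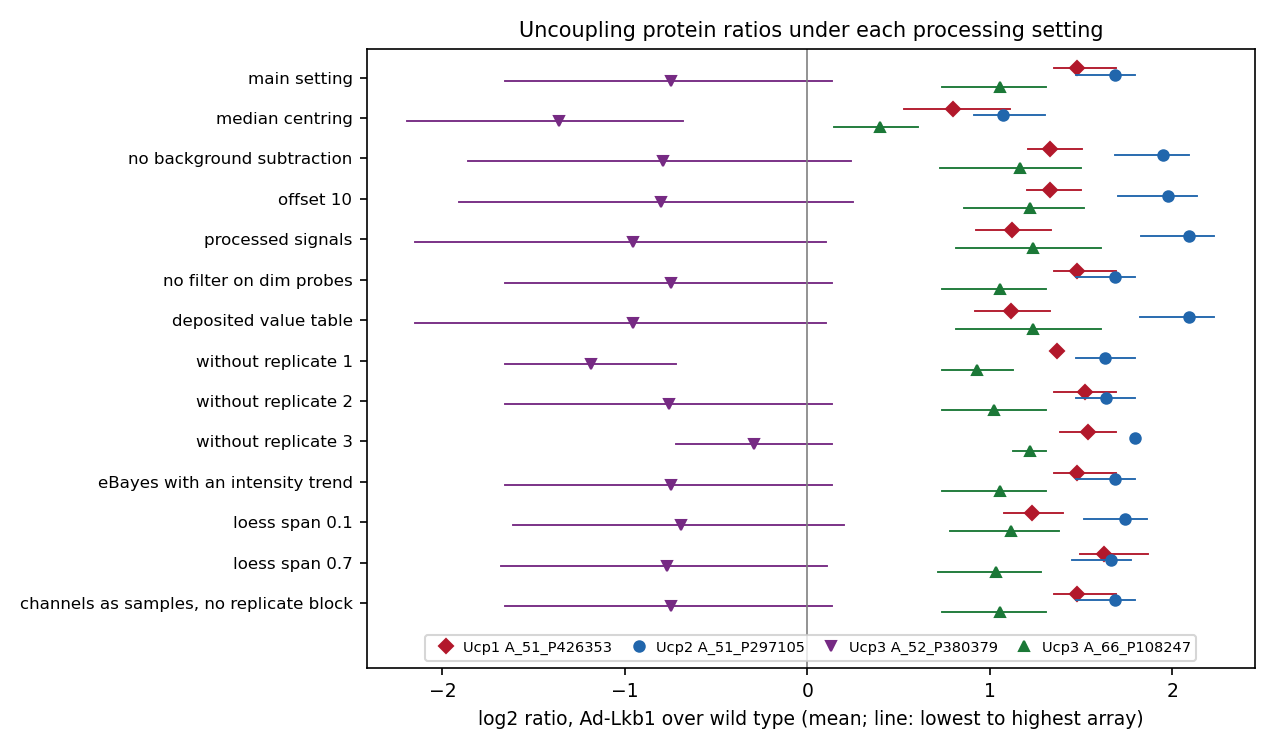
Mean log2 ratio (Ad-Lkb1 to wild type) of each member probe under each processing setting, with a line from the lowest to the highest array. The means of Ucp1, Ucp2 and Ucp3 A_66_P108247 stay above 0 and those of Ucp3 A_52_P380379 below 0, all lower with median centring.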

How the data were processed

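Expression was measured on 3 two-colour Agilent arrays of 1 slide and 1 scan. The deposited scanner files hold median spot and background intensity, processed intensity and red-to-green ratios as log10 values, which the authors made in Agilent Feature Extraction 11.5, as the submitters' processing notes say. The deposited value table equals that log10 ratio within 0.00494, and its median was 0 on each array. In R 4.3.3 with limma 3.58.1, median signals were corrected by normexp (offset 50) and loess (span 0.3, control spots at weight 0). Control spots and spots flagged as outliers in their own signal were left out. Spots flagged only for their background were kept. A probe was kept where at least 1 channel was well above background throughout the 3 arrays (25033 of 55681). Accessions were matched to a RefSeq table (GRCm38.p6), and 28026 of 29796 gave 1 symbol. Promoter windows, their coordinates and the order of neighbouring genes come from that build, not from the mm9 of the file headers, and no measured value depends on them. A gene is its brightest kept probe. Ratios were tested against 0 with lmFit and eBayes, which pairs the genotypes by array, with Benjamini-Hochberg adjustment over all features. The steps were tested on simulated data. Summed levels are linear intensities after loess and Aquantile scaling.

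The members and lists were chosen with earlier results of these data known. Named genes were Stk11, the 2 smallest p of each list, the 2 nearest protein-coding genes on each side, and the 3 genes nearest in ratio to each member. Alternatives changed 1 step at a time, except that processed signals and the deposited value table replace background correction and loess together. With 1 slide and 1 scan, no such block could be fitted.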

Additional observations from a re-analysis of the deposited data

How the results depend on the processing

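Over the 14 alternatives tested with limma, Ucp1 and Ucp2 kept their direction and passed in 12, all but those without replicate 1 and without replicate 2, and Ucp3 passed in 7. Leaving out 1 replicate gave 1.37 to 1.54 for Ucp1, 1.63 to 1.80 for Ucp2 and 0.93 to 1.22 for Ucp3. Adjusted p ran from 8.82e-04 to 0.123 for Ucp1, from 6.88e-04 to 0.123 for Ucp2 and from 0.00344 to 0.719 for Ucp3. Ucp3 lost its call with median centring (0.40), processed signals (1.24), no filter on dim probes (1.06), the mean of its probes (0.16) and the deposited value table (1.24). Ucp1 minus Ucp3 turned to -0.12 with processed signals and -0.12 with the deposited value table. Against probes next in intensity Ucp1 had 1.06. The count of features past the threshold, 1681 (54.9% of them higher), became 10099 with median centring (3.85% higher), 810 with processed signals (65.3% higher), 1033 without the filter on dim probes, 806 with the deposited value table and 2933 with channels as samples and no replicate block (a fit that ignores the pairing of an array, adjusted p = 8.82e-04 for Ucp1). It was 0 without replicate 1 (3928 at an unadjusted p under 0.05), 0 without replicate 2 (3562) and 2052 without replicate 3. The loess spans and the comparison with probes next in intensity were added after the data were seen. The causes were not tested, except that leaving out an array leaves 2.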
